A study of Homo sapiens with 8 samples.

Results

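The genes described here are 10 members of the insulin and insulin-like growth factor (IGF) axis, found by symbol among 21077 gene rows: the receptors INSR, IGF1R and IGF2R, the receptor substrates IRS1 and IRS2, and the IGF binding proteins IGFBP3, IGFBP4, IGFBP5, IGFBP6 and IGFBP7. They were measured by RNA-Seq in Hs578T cells, a human breast cancer line without estrogen receptor. One group of 4 libraries came from cells kept for 48 hours at 5 mM glucose (low glucose) and the other group of 4 from cells at 25 mM (high glucose, a model of hyperglycemia). By the methods of the study the medium held no serum in either group, and all cells were conditioned in low glucose beforehand. A single cell line was used, and the labels do not say whether replicates were separate cultures. The p values given here therefore weigh the difference between groups only against the spread among these libraries, which may be technical.

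Insulin and IGF1 act through the paired tyrosine kinase receptors INSR and IGF1R, which hand the signal to IRS adaptor proteins and on to PI3K and AKT. IGF2R carries no kinase. It removes IGF2 from the cell surface and, as the cation-independent mannose 6-phosphate receptor, sorts lysosomal enzymes. IGFBPs are secreted proteins that hold IGFs in the extracellular space, where proteases such as pappalysin release them. In the breast, IGF signaling drives growth of the epithelium and of tumors.

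The deposited values are a normalized signal, taken as CPM (read counts divided by the scaled library size in units of 1e6 counts). The columns summed to 1205567 to 1229021 in low and 1017015 to 1036274 in high glucose. Depth was estimated at 10244887 to 11956682 counts. All 5 mesenchymal markers examined were well expressed, the estrogen and progesterone receptor genes stayed at or below 0.270 CPM in every library, and EPCAM was listed at 0. The mesenchymal markers summed to 50170 to 54160 CPM at 5 mM and 28690 to 29840 CPM at 25 mM, and the epithelial keratin KRT18 was present at 221 to 242 CPM and 94.4 to 108 CPM. The 3 endothelial markers summed to 1.95 to 2.77 CPM at 5 mM and 6.21 to 7.80 CPM at 25 mM glucose with CDH5 at 0, and the leukocyte markers with a row (2 of 4) to 0.217 to 0.885 CPM and 1.30 to 1.91 CPM. Mitochondrial transcripts took 0.969% to 1.06% of the column sums at 5 mM and 1.67% to 1.95% at 25 mM. The part of these differences in the results below was not tested.

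The promoters of 4 members are shown because these genes span the responses described below: IGFBP3 fell most, IGFBP5 rose most, IGF2R was the receptor that rose, and IGFBP4 did not pass the test. Each line gives the 250 bases before the RefSeq start of the gene in GRCh38.p14, read 5′ to 3′ along the gene. Capitals mark matches to 4 motifs. TATAAA is the TATA box and was searched on the strand of the gene. GGGCGG is the GC box and was searched on both strands, as its reverse complement too. CACGTG, an E-box, reads the same on both strands. The FOXO binding core GTAAACA was searched on both strands. Matches of the GC box may overlap each other.
IGFBP3 (chr7:45921273-45921522, minus strand): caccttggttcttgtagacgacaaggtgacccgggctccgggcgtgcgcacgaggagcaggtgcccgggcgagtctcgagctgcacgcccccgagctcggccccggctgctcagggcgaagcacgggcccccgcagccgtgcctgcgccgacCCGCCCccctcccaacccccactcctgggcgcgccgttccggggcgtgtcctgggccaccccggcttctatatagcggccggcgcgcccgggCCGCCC
IGFBP5 (chr2:216695550-216695799, minus strand): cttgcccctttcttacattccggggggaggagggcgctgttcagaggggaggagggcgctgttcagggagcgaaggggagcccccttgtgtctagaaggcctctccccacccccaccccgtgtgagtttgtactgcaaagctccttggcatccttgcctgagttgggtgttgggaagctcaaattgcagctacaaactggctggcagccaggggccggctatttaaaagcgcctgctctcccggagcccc
IGF2R (chr6:159968832-159969081, plus strand): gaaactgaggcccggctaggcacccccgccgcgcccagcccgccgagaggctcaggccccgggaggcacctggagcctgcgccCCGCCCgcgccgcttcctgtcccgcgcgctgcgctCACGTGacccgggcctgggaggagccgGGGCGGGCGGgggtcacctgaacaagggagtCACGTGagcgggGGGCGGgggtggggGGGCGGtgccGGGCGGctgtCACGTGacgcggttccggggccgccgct
IGFBP4 (chr17:40443200-40443449, plus strand): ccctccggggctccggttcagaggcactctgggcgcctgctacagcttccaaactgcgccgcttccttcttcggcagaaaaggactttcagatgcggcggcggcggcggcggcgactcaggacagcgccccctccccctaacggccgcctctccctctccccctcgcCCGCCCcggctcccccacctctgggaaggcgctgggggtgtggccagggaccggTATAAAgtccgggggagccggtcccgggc

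The IGF2R promoter held 3 E-boxes and 6 GC boxes. At least 3 E-boxes occurred in 28 of 35116 RefSeq promoter windows of the same length (0.0797%), and at least 1 in 6.34%. The threshold of 3 is the count seen in IGF2R itself, among 9 promoters and 4 motifs searched, so the share is descriptive and not a test. The exact form TATAAA was found in IGFBP4 alone among the 9 members with a promoter in the table (6.80% of all windows held it). Its first base lay 29 bases before the start of the gene. Whether other members hold a variant TATA box was not examined. GC boxes occurred in 8 of the 9, against 42.6% of all windows. The exception was IGFBP5, whose promoter had none of the 4 motifs and 8 CpG dinucleotides, against 32 in IGFBP3, 33 in IGF2R and 24 in IGFBP4, and a median of 11 over all windows. The FOXO core was found in the IGFBP6 window only among the members (2.98% of all windows). These matches describe the sequence and are not evidence of binding, and no promoter of IGFBP7 was in the table.

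Insulin receptor transcripts were almost absent, whereas IGF1R was expressed and lower in high glucose. INSR was 0.221, 0, 0.108 and 0.472 CPM in low glucose and 0.0867, 0, 0 and 0.0901 CPM in high glucose, which corresponds to 7 and 2 estimated counts summed over the 4 libraries of each group. No library reached the 0.5 CPM that a gene needed in at least 2 libraries to be tested, so INSR was not tested. IGF1R was 32.5, 33.8, 35.2 and 35.7 CPM in low glucose and 26.8, 24.0, 25.5 and 23.4 CPM in high glucose. Each low-glucose library was above each high-glucose library. On the log2(CPM + 1) scale, which is used for every fold change here as high minus low glucose, the change was -0.45 ± 0.0662 (SE, n = 4 per group, limma adjusted p = 1.75e-05).

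The clearing and sorting receptor IGF2R was slightly higher in high glucose. It was 659, 605, 646 and 650 CPM in low glucose and 736, 730, 724 and 740 CPM in high glucose, without overlap. The log2 fold change was 0.20 ± 0.0339 SE (limma adjusted p = 9.08e-05), a linear ratio of 1.14 between the group means. M6PR, the smaller cation-dependent receptor of the same sorting route, rose more, from 76.7 ± 1.62 to 158.5 ± 5.64 CPM (SD, n = 4, log2 fold change 1.04). The balance of IGF2R to M6PR within a library was a log2 ratio of 2.94 to 3.13 in low and 2.14 to 2.27 in high glucose. It differed by -0.84 between the group means (2-sided exact permutation test, p = 0.0286 and 0.0286 adjusted over 2 ratios, the lowest possible with 4 against 4 libraries). M6PR was 74.4 to 78.0 CPM in low and 151 to 164 CPM in high glucose, so the ranges of the 2 genes already fixed this p value. It adds no support to their changes.

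Of the receptor substrates, IRS1 was detected and IRS2 was listed at 0. IRS1 was 40.4, 36.4, 35.3 and 38.0 CPM in low glucose and 44.5, 43.1, 44.8 and 42.6 CPM in high glucose. All high-glucose libraries were above the low-glucose libraries, and the rise was small (log2 fold change 0.22 ± 0.0575 SE, limma adjusted p = 0.00325). IRS2, which carries the insulin signal in many tissues, was listed at 0 in all 8 libraries. A count of 0 allows up to 3 counts, which is 0.260 to 0.354 CPM depending on the library. An exact 0 in a table without counts can also be a failed estimate, and which of these holds for IRS2 cannot be told from the table. Of the 21077 gene rows, 1552 were at 0 in all libraries. The promoters of INSR and IRS2 held 28 and 42 CpG dinucleotides, and 4 and 5 GC boxes.

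**Figure D1:**
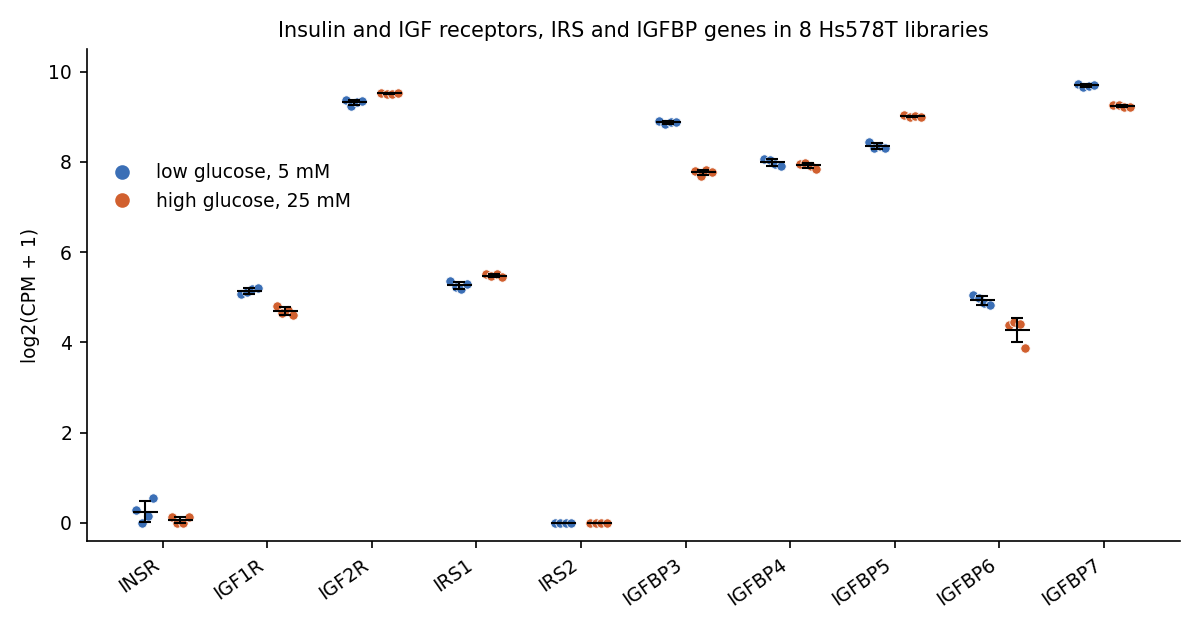
Level of each of the 10 members on the log2(CPM + 1) scale. A point is 1 library, and black bars give the mean and SD over the 4 libraries at each glucose concentration. INSR and IRS2 sit at or near 0, IGFBP3 has the largest difference between the groups, and the groups overlap for IGFBP4.

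IGFBP3, the main carrier of IGFs in the circulation, showed the largest change of the members. It was 480, 459, 475 and 470 CPM in low glucose and 222, 206, 225 and 219 CPM in high glucose. The groups were far apart relative to the spread within each, with a log2 fold change of -1.11 ± 0.0363 SE (limma adjusted p = 5.54e-13), and 13.2% of all tested genes changed by more in either direction. IGFBP5, which binds matrix and takes part in mammary involution, moved the other way. It was 348, 317, 325 and 317 CPM in low glucose and 525, 513, 514 and 510 CPM in high glucose (log2 fold change 0.66 ± 0.0363 SE, limma adjusted p = 2.11e-10). The within-library log2 ratio of IGFBP3 to IGFBP5 was positive in all low-glucose libraries (0.46 to 0.57) and negative in all high-glucose libraries (-1.32 to -1.19). The difference was -1.77 (2-sided exact permutation test, p = 0.0286 and 0.0286 adjusted). Since IGFBP3 was lower and IGFBP5 higher in every high-glucose library, this p value was fixed by those changes and adds no support to them. This ratio is of CPM and not of CPM per length, so its sign does not give the order of the 2 transcripts.

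IGFBP7, a matrix-associated family member with low affinity for IGFs, was 851, 815, 822 and 832 CPM in low glucose and 618, 613, 594 and 594 CPM in high glucose. It was lower in every high-glucose library (log2 fold change -0.46 ± 0.0315 SE, limma adjusted p = 2.89e-09). IGFBP6, which prefers IGF2 over IGF1, was 32.3, 30.5, 28.5 and 27.5 CPM in low glucose and 19.8, 20.7, 20.1 and 13.7 CPM in high glucose. Its log2 fold change was -0.66 ± 0.111 SE (limma adjusted p = 6.25e-05), and -0.53 without high-glucose replicate 4, the lowest library. IGFBP4, an inhibitor of IGF action that pappalysin cleaves, was 268, 262, 246 and 240 CPM in low glucose and 249.1, 251, 238 and 230 CPM in high glucose. These groups overlapped and the difference did not pass (-0.07, 95% CI -0.16 to 0.02, limma adjusted p = 0.170).

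Of the 10 members, 8 were tested, and 7 of these passed an FDR of 0.05, against 72.9% of all 15570 genes tested. The 3 that rose were IGFBP5, IRS1 and IGF2R (35.7% of all genes rose), and the 4 that fell were IGFBP3, IGFBP6, IGFBP7 and IGF1R (37.2% of all genes fell). The groups did not overlap for these 7, as for 66.7% of all genes. A count of this size is therefore not particular to the members. The median log2 fold change was -0.26 over the 8 members and 0 to 2 decimals over all genes. IGF1R, IGF2R, IRS1 and IGFBP7 passed with changes smaller than the median absolute change of all genes (0.48), whereas IGFBP3, IGFBP5 and IGFBP6 changed by more.

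The sizes of the changes rest in part on the scaling. Rescaling all libraries to 1 common total shifted the median log2 fold change of all genes by 0.20, and 7325 genes passed as higher and 4348 as lower, against 5553 and 5797 with the deposited scaling. The 7 calls above kept their direction and passed under each of 4 other scalings. With the common total, the log2 fold changes were -0.21 for IGF1R, -0.21 for IGFBP7, -0.43 for IGFBP6, 0.44 for IGF2R and 0.46 for IRS1. Quantile normalization gave -0.17 for IGFBP7 and 0.48 for IGF2R. IGFBP4 turned from -0.07 to 0.18 with the common total and passed as higher (limma adjusted p = 0.00107, with 0.00107 to 0.556 over all alternatives).

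**Figure D2:**
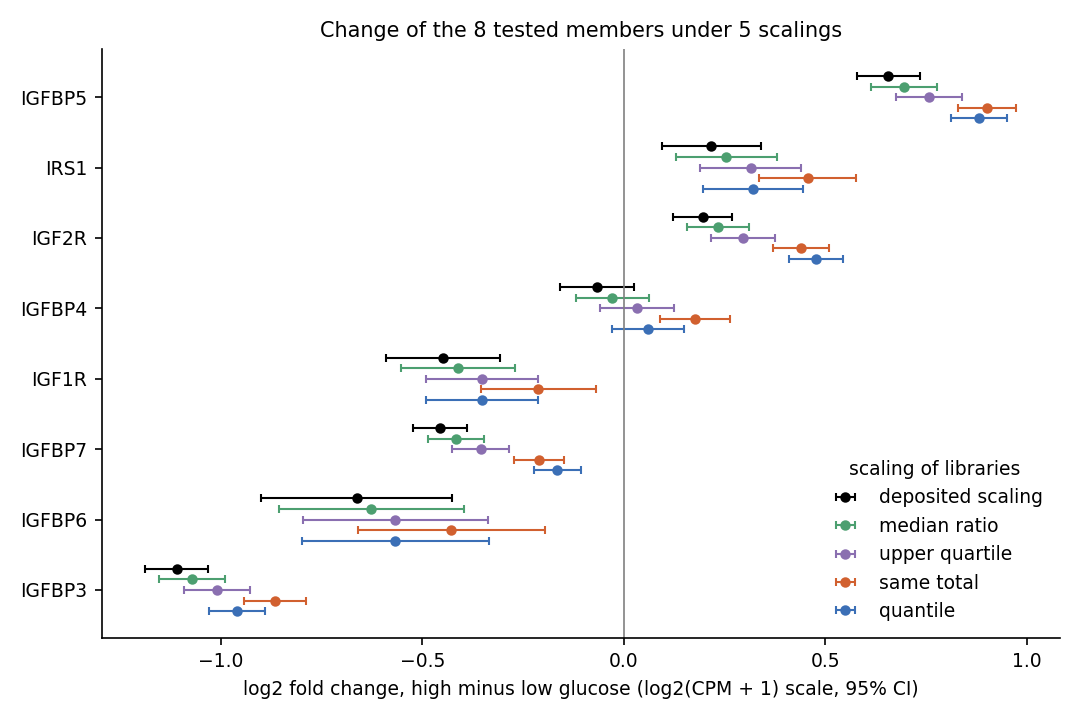
Log2 fold change (high minus low glucose, log2(CPM + 1) scale) of the 8 tested members, with 95% confidence intervals from limma, under the deposited scaling and 4 other scalings. IGFBP3, IGFBP6, IGFBP7 and IGF1R stay below 0 and IGFBP5, IRS1 and IGF2R above 0, while IGFBP4 lies between -0.07 and 0.18 and changes sign with the scaling.

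Levels of different members were compared per kilobase of 1 reference transcript each, which leaves out other isoforms. In low glucose the order of CPM per kb was IGFBP7 (581.5 ± 10.9), IGFBP3 (180.2 ± 3.53), IGFBP4 (115.2 ± 5.77), IGFBP5 (52.4 ± 2.37), IGF2R (45.5 ± 1.69), IGFBP6 (31.4 ± 2.27), IRS1 (3.84 ± 0.225) and IGF1R (2.81 ± 0.117, all SD, n = 4), with no overlap between neighbors. In high glucose it was IGFBP7 (423.9 ± 8.65), IGFBP4 (109.8 ± 4.44), IGFBP3 (83.3 ± 3.22), IGFBP5 (82.6 ± 1.02), IGF2R (52.1 ± 0.495), IGFBP6 (19.6 ± 3.47), IRS1 (4.48 ± 0.107) and IGF1R (2.04 ± 0.125). IGFBP3 and IGFBP5 overlapped in high glucose (78.7 to 86.0 and 81.7 to 84.1 CPM per kb), and the other neighbors did not. INSR was at most 0.0498 CPM per kb in any library.

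The make-up of IGFBP transcripts changed with glucose, while IGFBP7 stayed the most abundant. Summed over IGFBP1 to IGFBP7, the level was 958 to 999.7 CPM per kb in low and 704 to 738 CPM per kb in high glucose, as deposited. IGFBP3 made up 18.6% ± 0.287 of this sum at 5 mM and 11.5% ± 0.542 at 25 mM (SD, n = 4), and IGFBP5 5.40% ± 0.137 and 11.4% ± 0.134. The share of IGFBP4 was 11.9% ± 0.470 in low and 15.2% ± 0.344 in high glucose, although its own level did not pass the test. IGFBP7 held 59.97% ± 0.524 and 58.7% ± 0.499, and IGFBP6 3.23% ± 0.186 and 2.71% ± 0.446. These shares were not tested. Multiplying a library by a factor leaves them as they are, but quantile normalization, which moved the IGFBPs by unequal amounts, does not.

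**Figure D3:**
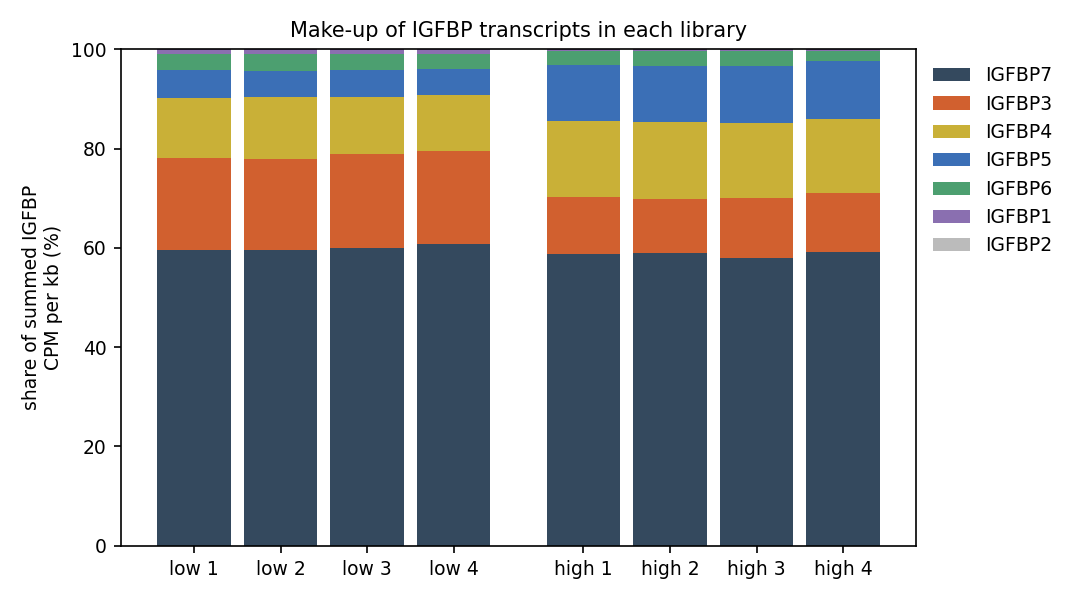
Share of each IGFBP in the summed CPM per kb of IGFBP1 to IGFBP7 (percent) in the 4 low-glucose and 4 high-glucose libraries, 1 bar per library. IGFBP5 takes 5.29% to 5.58% in low and 11.3% to 11.6% in high glucose, and IGFBP3 goes from at least 18.3% to at most 11.99%.

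IGFBP1 and IGFBP2 each lie close to a member on the chromosome, and the gaps given are in chromosome coordinates. IGFBP1, a liver-type carrier that insulin represses, ends 18584 bases before IGFBP3 (chromosome 7 from 45912245 to 45921272 in GRCh38.p14), and both fell in high glucose. IGFBP1 ranged over 12.9 to 14.8 CPM at 5 mM and 3.11 to 4.77 CPM at 25 mM (log2 fold change -1.62, limma adjusted p = 1.00e-08). IGFBP2 ends 7668 bases before IGFBP5 (chromosome 2 from 216672105 to 216695549), and reached at most 0.354 CPM, so it was not tested beside the rising IGFBP5. IGFBPL1, an IGFBP-like gene, rose, with 0.217 to 0.472 CPM at 5 mM and 3.01 to 3.64 CPM at 25 mM. Its log2 fold change of 1.69 understates the linear ratio of 9.80 between the means, since 1 CPM was added to levels close to the 3-count limit. In all, 1 of the 4 other carriers rose, 1 fell and 2 were not tested, as no row for IGFALS was analysed here.

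The genes whose profile over the 8 libraries was most like that of IGFBP3 were SNHG16, SH3KBP1 and CCPG1, with a mean absolute difference of 0.0238, 0.0252 and 0.0262 between centered log2(CPM + 1) profiles. Those most like IGFBP5 were GLRX, ARF4 and MPRIP (0.0206, 0.0222 and 0.0222). These are descriptions of 8 libraries in 2 groups.

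The ligand IGF2 was at or below 0.859 CPM in every library. IGF2 was 0.364 ± 0.289 CPM at 5 mM and 0.518 ± 0.280 CPM at 25 mM (limma adjusted p = 0.453), and INS and IGF1 were not analysed here. Of the IGFBP proteases and the stanniocalcins that inhibit pappalysins, 8 of 9 were tested (all but ADAM28, which reached 0.433 CPM), and 4 rose and 4 fell (median log2 fold change 0.22). PAPPA, the pappalysin that cleaves IGFBP4, fell from 139 ± 3.94 to 84.2 ± 3.31 CPM and PAPPA2 from 58.9 ± 4.11 to 27.9 ± 1.23 CPM. Their inhibitor STC2 fell from 2090 ± 69.8 to 1101 ± 56.9 CPM, whereas STC1 rose from 19.8 ± 1.27 to 411 ± 9.99 CPM. The secreted protease HTRA1 (log2 fold change 1.35) and the metalloproteases ADAM12 (1.23) and ADAM9 (1.16) rose as well.

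Among receptor adaptors, a list not limited to genes that promote the signal, 9 rose and 2 fell of 15 tested, with a median of 0.58. Of all genes tested, 35.7% rose and 37.2% fell. SH2B3, an adaptor known as a brake on cytokine receptors, rose from 60.7 ± 2.23 to 175 ± 6.43 CPM, the phosphatase PTPN11 from 162 ± 4.86 to 296 ± 16.7 CPM and CRK from 107 ± 1.84 to 192 ± 3.04 CPM, while the docking protein GAB2 fell from 71.6 ± 2.72 to 20.8 ± 0.415 CPM. The IRS family member IRS4 was listed at 0 and the insulin receptor-related receptor INSRR reached 0.108 CPM in 1 library. For the PI3K and AKT core 8 rose and 5 fell of 16, with a median of 0.16. The catalytic subunit PIK3CA (0.66), the AKT substrate GSK3B (0.52) and the RAB GTPase-activating protein TBC1D4 (1.71) rose, and AKT2 fell (-0.35), which did not pass with the common total (-0.11, limma adjusted p = 0.0901). AKT1 did not pass (0.06, limma adjusted p = 0.401), but passed as higher with the common total (0.31), upper quartile scaling (0.16) and quantile normalization (0.17), and without high-glucose replicate 4 (0.15).

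Of 22 attenuators, genes that damp the signal, 7 rose and 12 fell, with a median of -0.15. The pseudokinase TRIB3, which binds AKT, fell from 978 ± 33.9 to 97.4 ± 12.1 CPM, the receptor-binding adaptor GRB10 from 243 ± 6.15 to 121 ± 6.64 CPM and the ubiquitin ligase CBLB from 427 ± 6.005 to 253 ± 7.88 CPM. The tyrosine phosphatase PTPN1 (0.93) and the cytokine-signaling suppressor SOCS3 (0.98) rose. The FOXO factors, which insulin keeps out of the nucleus, were listed with their target genes. Of 15 tested, 3 rose and 9 fell, with a median of -0.38, where 35.7% of all genes rose and 37.2% fell. The 3 that rose were the factors FOXO3 and FOXO4 and the target gene SOD2, and all 9 that fell were target genes. FOXO3 rose from 57.0 ± 2.75 to 95.3 ± 1.74 CPM and the superoxide dismutase SOD2 from 71.3 ± 0.269 to 171 ± 2.33 CPM. The ubiquitin ligase FBXO32 fell from 855 ± 17.5 to 223 ± 7.17 CPM and the stress-response gene GADD45A from 363 ± 6.28 to 97.6 ± 3.67 CPM. INSR and IRS2 are themselves textbook FOXO targets, but neither could be tested, nor could FOXO6 and TRIM63, which reached 0.520 and 0.217 CPM.

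The remaining lists describe how the receptors and carriers are made, sorted and held. In mannose 6-phosphate tagging and sorting 5 rose and 6 fell of 13 (median 0.01). Besides M6PR, the sorting receptor SORT1 rose (1.10), and the retromer-associated SNX2 (-0.62) and the adaptor GGA3 (-0.85) fell. Of 6 tested genes of receptor and ligand folding and cleavage, 2 rose and 3 fell. The chaperones CALR (-1.30), HSP90B1 (-1.25) and CANX (-0.58) fell, and FURIN, the protease that cuts the receptor precursors, rose (0.82), while PCSK6, a related protease, reached 0.191 CPM and was not tested. Of 3 IGF2 mRNA-binding proteins IGF2BP3 rose from 8.18 ± 0.914 to 17.3 ± 0.693 CPM and IGF2BP2 fell (-0.32), a call that was lost with the common total (-0.08, limma adjusted p = 0.116, with 0.116 the highest over all alternatives). Of 4 tested surface partners, the integrin subunits ITGAV (0.85) and ITGB3 (0.32) rose, and TMEM219 (-0.42), a receptor of IGFBP3, and the endocytic receptor LRP1 (-0.25) fell. Vitronectin (VTN) reached 0.236 CPM and was not tested. LRP1 was -0.003 with the common total and 0.07 with quantile normalization, neither of which passed, and ITGB3 did not pass without low-glucose replicate 2, high-glucose replicate 2 or high-glucose replicate 4. Over all lists, 11 of 87 calls were lost under at least 1 alternative, and 15 of the 18 genes not called passed under at least 1. Of all genes tested, 72.9% were called, 35.7% as higher and 37.2% as lower. The counts of the lists were not tested against these shares.

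**Figure D4:**
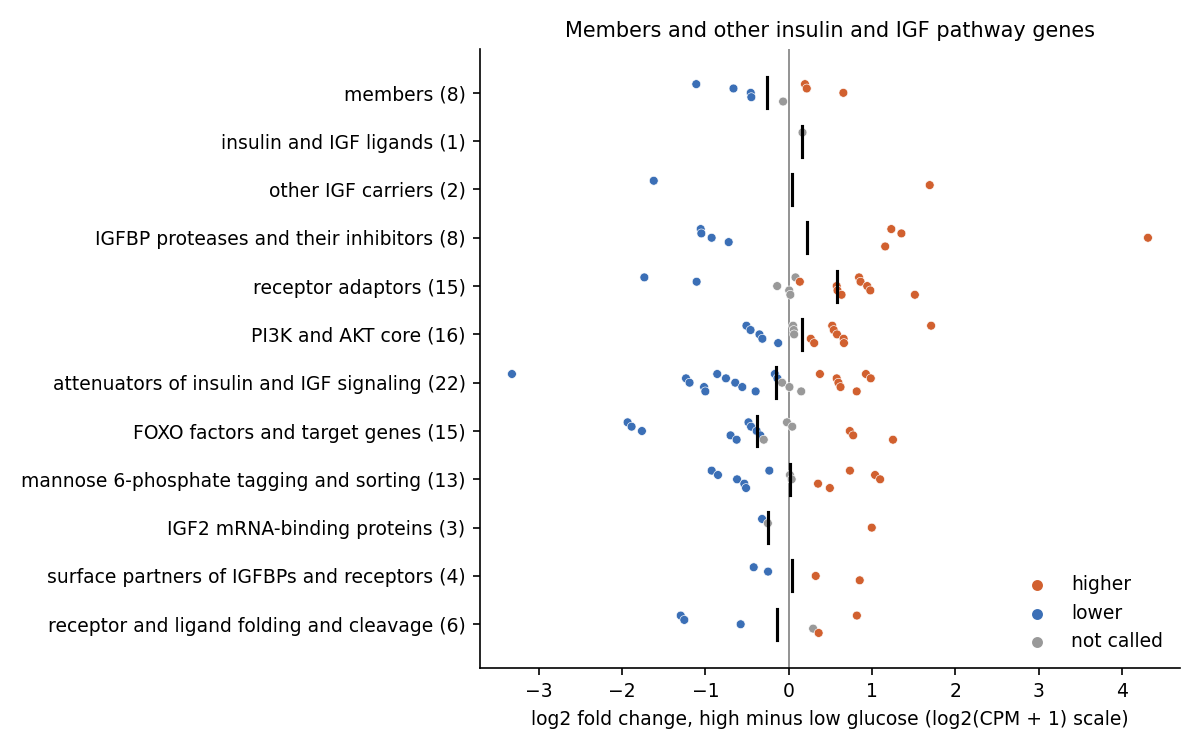
Log2 fold change (high minus low glucose, log2(CPM + 1) scale, deposited scaling) of the tested members and of the tested genes of 11 other lists, with the number tested in parentheses, each point a gene and black bars the medians. Medians run from -0.38 for FOXO factors and target genes to 0.58 for receptor adaptors, and single genes lie on both sides of 0 in each list with more than 1 tested gene. Some calls depend on the scaling, among them those for IGFBP4, AKT1, AKT2, IGF2BP2 and LRP1, whose sign turned under quantile normalization.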

How the data were processed

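RNA-Seq profiles of 8 Hs578T libraries were analysed, 4 per treatment label. The authors deposited 1 table of normalized signal per gene and library. For it the processing notes of the submitters list hg38 and edgeR. The study's methods describe CPM with TMM factors for its tumors and for xenografts, Hs578T among them, but do not name cultured Hs578T cells, and the signal was taken as such CPM. For the tumors they name a stranded TruSeq kit and alignment with Tophat to hg19, a build that differs from the hg38 of the notes. The aligner, library kit and counting program of the libraries analysed here are therefore taken as unknown. In each library the most frequent positive value was taken as 1 count. Only 71.3% to 73.7% of values below 50 counts were whole within 0.005 count, so no count model was used.

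The 15570 genes that reached 0.5 CPM in 2 or more libraries were compared as log2(CPM + 1) with limma 3.58.1 (R 4.3.3), with trended variance, without covariates, and with Benjamini-Hochberg adjustment over all genes tested. Of 4 within-library ratios planned, those of INSR to IGF1R and IRS2 to IRS1 were not computed, since INSR and IRS2 were at or near 0. Ratios used a pseudocount of 1 CPM and exact permutation tests over 70 arrangements. Members and gene lists were chosen with earlier results of these data known. From each list the 4 called genes of lowest p were named (2 genes where none was called), with the genes not tested. Some genes that this rule names are not reported here. PAPPA, PAPPA2, STC2, AKT1, AKT2, PTPN1, SOCS3 and FOXO4 were added after their values were seen. Lengths are of the MANE Select transcript in GENCODE v44 lifted to GRCh37, and no coordinates were taken from it. Promoters and positions are from RefSeq on GRCh38.p14, the assembly that hg38 names, matched by symbol. Limits from counts cover counting error only.

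Replicate numbers are shared between groups in the labels. Alternatives covered the pseudocount, the filter, 4 scalings, the variance prior, the replicate block and each library left out.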

Additional observations from a re-analysis of the deposited data

Results flagged for a closer look

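In a group of 4 libraries, a library was noted when its gap to the nearest other library was large relative to the range of the group (Dixon's criterion at the 95% level). This held for 7 of 90 groups (45 genes), where chance gives about 1 in 20, or 4.5. Among the members, IGFBP6 was 13.7 CPM in high-glucose replicate 4 against 19.8 to 20.7 CPM in the other libraries. In low glucose, STC1 was 17.9 CPM in replicate 3 against 20.4 to 20.5 CPM, ADAM9 was 438 CPM in replicate 2 against 460.6 to 464 CPM, SNX2 was 168 CPM in replicate 1 against 162 to 163 CPM, and SORT1 was 40.9 CPM in replicate 2 against 51.4 to 52.1 CPM. In high glucose, FBXO32 was 212 CPM in replicate 2 against 226 to 228 CPM, and SORT1 was 99.8 CPM in replicate 3 against 107 to 108 CPM.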

How the results depend on the processing

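The count of 7 called members was 7 under each alternative except rescaling to the same total, where it was 8 because IGFBP4 passed as higher (0.18). Counts and ratios stayed within 1.5 times or on their side of the threshold in 329 comparisons with an alternative and left it in 3. The count for IGF2 mRNA-binding proteins went from 2 to 1 with the same total. LRP1 turned to 0.067 with quantile normalization. The share of higher calls among all calls went from 48.9% to 62.8% with the same total, which multiplies every library by 1 factor. The replicate block paired libraries by their number in the labels. The correlation of deviations from the group means was -0.0267, 0.112, 0.0120 and 0.0836 for numbers 1 to 4, so the numbers were not taken as pairs. With the block, 11494 genes were called against 11350, and no call of a member changed. The ratios of IGF2R to M6PR (-0.84) and IGFBP3 to IGFBP5 (-1.77) then had p = 0.125, the smallest that an exact sign-flip test of 4 pairs can give. Depth limits INSR and the other genes near 0, and the exact 0 of IRS2 may also be a failed estimate.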
